A study of Bos taurus with 14 samples.

Results

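ZNF genes are a large family of zinc finger genes, and 216 of them were expressed in bovine embryos, fibroblasts or early embryonic stem cells. They were chosen by their level: a symbol of ZNF followed by digits alone, no numbered copy suffix, and at least 1 RPKM (reads scaled for gene length and sequencing depth) in 2 or more of the 6 libraries described first. Of 243 such symbols among the 23159 features used, 27 stayed under that threshold, and 6 further names carried a copy suffix. The study sequenced total RNA from 14 cattle samples. Bovine embryonic stem cells (bESC), lines A and B, came from blastocysts and were sampled at passage 10 (P10) and at 4 later passages each, P13, P23, P35 and P45 for line A and P12, P24, P35 and P46 for line B. They grew on mouse embryonic fibroblast feeders in CTFR, a base medium without growth factors to which human FGF2 (20 ng/mL) and the WNT pathway inhibitor IWR1 (2.5 μM) were added. The controls were 2 pools of 10 whole in vivo blastocysts, which hold trophectoderm and hypoblast as well as epiblast, and 2 lines of skin fibroblasts. No genotype, age or transgene is given for any group, and nothing states that the libraries of a group came from separate animals, so a p-value here measures the spread between these samples.

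A C2H2 zinc finger is a short loop held by a zinc ion, and arrays of such fingers read DNA in a sequence-specific way. Many ZNF proteins also carry a KRAB domain, which binds TRIM28 and through it the histone methyltransferase SETDB1, so that the chromatin at the bound site is silenced. In early embryos and pluripotent cells this system is best known for holding transposable elements silent and for protecting imprinted marks, while ZNF proteins without KRAB include ordinary activators, chromatin adaptors, RNA-binding proteins and ribosome factors. ZNF genes form a large family of related sequences, and which aligner and counter were used is not given in the sources used here, so reads could be split between close relatives and single values are uncertain for that reason.

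The labels were checked against marker genes. The summed level of 5 pluripotency markers was 405.5 and 333.9 scaled RPKM at P10, 159.3 and 121.6 in blastocysts and 0.40 and 1.67 in fibroblasts. The sum of 8 fibroblast markers was 3499 and 4130 in fibroblasts, 69.2 and 143.4 at P10 and 4.87 and 5.65 in blastocysts, and the trophectoderm regulator CDX2 was found in blastocysts alone (25.3 and 28.4) and listed at 0 in the other 4 libraries. From the same trophectoderm list TFAP2A ran the other way, with 0.418 and 0.757 in blastocysts and 9.65 and 16.6 in fibroblasts. Scaled RPKM are deposited values divided by a factor per library (median of ratios over features at 1 RPKM or more in every library), because 2 features took 65.8% and 64.0% of the summed RPKM of the blastocyst pools. A deposited RPKM of 1 equals 1.83 and 1.78 scaled units in blastocysts, 0.802 and 0.78 in fibroblasts and 0.669 and 0.705 at P10, so the threshold was stricter for blastocysts. In these bulk samples fewer cells of a type and less RNA per cell cannot be told apart.

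As a group the ZNF genes were weakly expressed, and their typical level was highest at P10. The median over the 216 genes of the group mean was 3.28 scaled RPKM at P10, 1.75 in fibroblasts and 1.32 in blastocysts, where all 11761 features past the same threshold had medians of 6.22, 6.22 and 3.93. The mean was highest at P10 for 137 ZNF genes (63.4%, against 36.8% of all features), in blastocysts for 50 (23.1% against 26.7%) and in fibroblasts for 29 (13.4% against 36.5%). These shares describe genes that the levels themselves had chosen: 24 passed the threshold at P10 alone, 1 in fibroblasts alone and none in blastocysts alone. Among the 66 ZNF genes at 1 RPKM or more in all 6 libraries, the order was another one: blastocysts were highest for 31 (47.0%, against 37.2% of all such features), P10 for 24 (36.4% against 29.1%) and fibroblasts for 11 (16.7% against 33.7%). This subset was set mostly by the pools, where 91 and 87 ZNF genes reached 1 RPKM. The numbers were 170 and 175 in fibroblasts and 211 in each P10 library. The choice of these 66 thus favours genes that are high in blastocysts, so their shares are a description too. Both blastocyst pools listed 19 ZNF genes at 0 (8.80%, against 6.73% of all features), and neither other group listed any in both of its libraries.

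**Figure D1:**
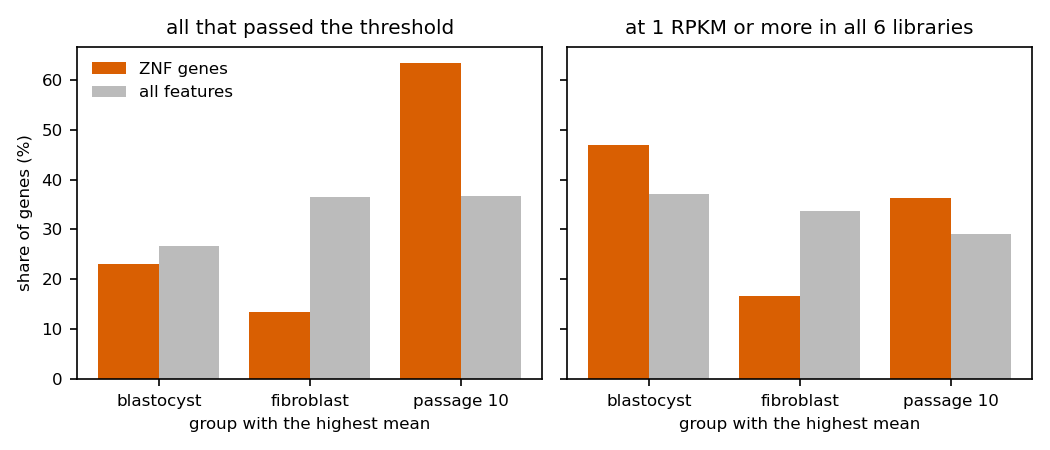
Share of genes (%, y axis) whose mean scaled RPKM was highest in blastocysts, fibroblasts or passage 10 bESC (x axis), for ZNF genes (orange) and all features (grey), left for every gene past the threshold and right for genes at 1 RPKM or more in all 6 libraries. P10 leads on the left with 63.4% of ZNF genes and blastocysts lead on the right with 47.0%.

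The threshold itself had a narrow edge. Just inside, the second-highest deposited RPKM was 1.00 for ZNF862, 1.09 for ZNF365 and 1.21 for ZNF550. Just outside it was 0.917 for ZNF404, 0.859 for ZNF555 and 0.832 for ZNF514.

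A few ZNF genes stood far above the family median. ZNF207 (BuGZ, a spindle and mitotic checkpoint factor) was the most abundant, with 104 and 126 scaled RPKM in blastocysts, 42.3 and 51.8 in fibroblasts and 86.4 and 90.0 at P10. ZNF326, a subunit of the DBIRD complex that couples splicing to transcription, followed a different order with 24.6 and 27.2 in blastocysts, 22.9 and 21.0 in fibroblasts and 55.9 and 46.8 at P10. ZNF638, an RNA- and DNA-binding protein that recruits the HUSH silencing complex to foreign DNA, stood at 40.9 and 58.4 in blastocysts, 15.7 and 18.4 in fibroblasts and 33.2 and 24.4 at P10. So ZNF207 and ZNF638 were highest in the blastocyst pools on the scaled values, and ZNF326 was highest at P10. This order depended on the scaling: as deposited, ZNF207 was at 56.5 and 71.0 RPKM in the pools and 129 and 128 at P10, and ZNF638 was at 22.3 and 32.8 in the pools and 49.6 and 34.6 at P10. ZNF259 (ZPR1, a partner of translation elongation factor eEF1A) had 27.7 and 25.6 in blastocysts, 31.1 and 23.4 in fibroblasts and 18.8 and 18.0 at P10, so that both P10 libraries lay under all 4 controls on the scaled values. As deposited its P10 values of 28.2 and 25.6 RPKM lay above the 15.1 and 14.4 of the pools. ZNF106 had 34.5 and 47.3 in blastocysts, 3.14 and 5.28 in fibroblasts and 14.8 and 13.0 at P10, with P10 between the controls and no overlap on either side on the scaled values. As deposited it overlapped between the pools (18.8 and 26.5 RPKM) and P10 (22.1 and 18.5).

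Against fibroblasts, P10 bESC carried more ZNF transcript far more often than less. The linear model limma, fitted over all 11761 features with a Benjamini-Hochberg adjusted p under 0.05 as the call, called 101 ZNF genes higher at P10 (46.8%, background 29.1%) and 10 lower (4.63%, background 24.6%). Where a call had to hold under the scaled values, the values as deposited and quantile normalization alike, 68 were higher (31.5%, background 25.7%) and 10 lower (4.63%, background 21.2%). Of the 101, 20 had passed the threshold at P10 alone, a choice that favours a difference. The 66 genes present in all 6 libraries hold none that passed at P10 alone, but their levels in the same libraries chose them too. Of these 66, 23 were higher (34.8%, background 24.1%) and 4 lower (6.06%, background 23.4%), which is a description as well. Both P10 libraries lay above both fibroblast libraries for 153 of the 216 genes and below for 33 (42.2% and 36.4% of all features lay so). The count of higher calls rested on single libraries: it was 43 without line A and 51 without line B at P10, and 65 without fibroblast line 1, while the calls lower were 5, 6 and 6 there. The background fell too, and the higher calls were then 22.5% (background 16.2%), 26.7% (background 17.4%) and 30.4% (background 23.2%) of the 191, 191 and 214 ZNF genes still tested.

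Changes are log2 differences on the log2(scaled RPKM + 1) scale, which understates changes of low genes, and are given relative to the median feature, which stood at 0.061 against fibroblasts and 0.477 against blastocysts (0.231 and 1.43 with deposited values, 0.0426 and -0.00563 after quantile normalization). Errors are the standard errors of the fit with 2 libraries a group, and adjusted p-values are limma's, for the change before that subtraction. They are printed for genes at 1 RPKM or more in all 6 libraries; for the rest, whose level decided their place among these genes, the change is a description.

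Single ZNF genes stood far above their fibroblast level at P10. ZNF423, a multi-finger cofactor of BMP-SMAD and retinoic acid signalling known for neural and adipocyte precursors, was at 0.467 and 0.112 scaled RPKM in fibroblasts, 0.224 and 0 in blastocysts and 26.5 and 18.4 at P10, a change of 4.12 ± 0.27 from fibroblasts. It passed the threshold at P10 alone. ZNF219, a transcriptional regulator that partners SOX9 in cartilage, was at 2.00 and 1.20 in fibroblasts and 21.6 and 37.2 at P10 (3.45 ± 0.31) and was listed at 0 in both blastocyst pools. For ZNF462, which mouse work ties to heterochromatin in embryonic stem cells, fibroblasts had 2.10 and 2.80, blastocysts 1.17 and 0.804 and P10 27.0 and 17.1 (2.65 ± 0.28 from fibroblasts and 3.03 ± 0.28 from blastocysts). Each of the P10 libraries was above all 4 control libraries for these genes.

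ZNF608 rose against both controls and was present in all 6 libraries. Its levels were 2.35 and 2.17 in blastocysts, 0.887 and 3.09 in fibroblasts and 19.5 and 19.7 at P10, which gave 2.83 ± 0.36 from fibroblasts (adjusted p 0.000842) and 2.19 ± 0.36 from blastocysts (adjusted p 0.000775). ZNF711, a partner of the histone demethylase PHF8, had 0.211 and 0.2 in blastocysts, 0.735 and 1.31 in fibroblasts and 11.7 and 9.59 at P10. ZNF215, a KRAB and SCAN gene that is imprinted in some human tissues, had yet another pattern, with 27.0 and 29.5 in blastocysts, 0.0859 and 0.216 in fibroblasts and 16.7 and 9.08 at P10. It was therefore near 0 in fibroblasts and present in embryo and stem cells; its change from blastocysts was -1.61 ± 0.29 and has the opposite sign with deposited values before the median is taken off.

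Only 10 ZNF genes were called lower than in fibroblasts, under all 3 scalings, and few of them by a wide margin. ZNF655, a KRAB protein that binds the signalling adaptor VAV1, fell by the most, from 4.27 and 3.86 in fibroblasts and 4.15 and 4.44 in blastocysts to 0.870 and 0.722 at P10 (-1.56 ± 0.20, adjusted p 0.00105). ZNF800 had 13.4 and 13.1 in blastocysts, 6.29 and 6.88 in fibroblasts and 2.97 and 3.23 at P10 (-0.95 ± 0.19 from fibroblasts, adjusted p 0.00722; -2.28 ± 0.19 from blastocysts, adjusted p 0.000242). These 2 genes were lower at P10 than in every control library. By contrast ZNF25, ZNF133 and ZNF333 were fibroblast genes: ZNF25 had 6.50 and 7.56 there, 1.62 and 2.52 at P10 and was listed at 0 in both blastocyst pools. ZNF133 went from 8.89 and 6.76 in fibroblasts to 3.20 and 2.64 at P10, with 1.02 and 0.780 in blastocysts. For ZNF333 the values were 3.77 and 4.43 in fibroblasts, 1.17 and 1.53 at P10 and 0.145 and 0.0463 in blastocysts.

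**Figure D2:**
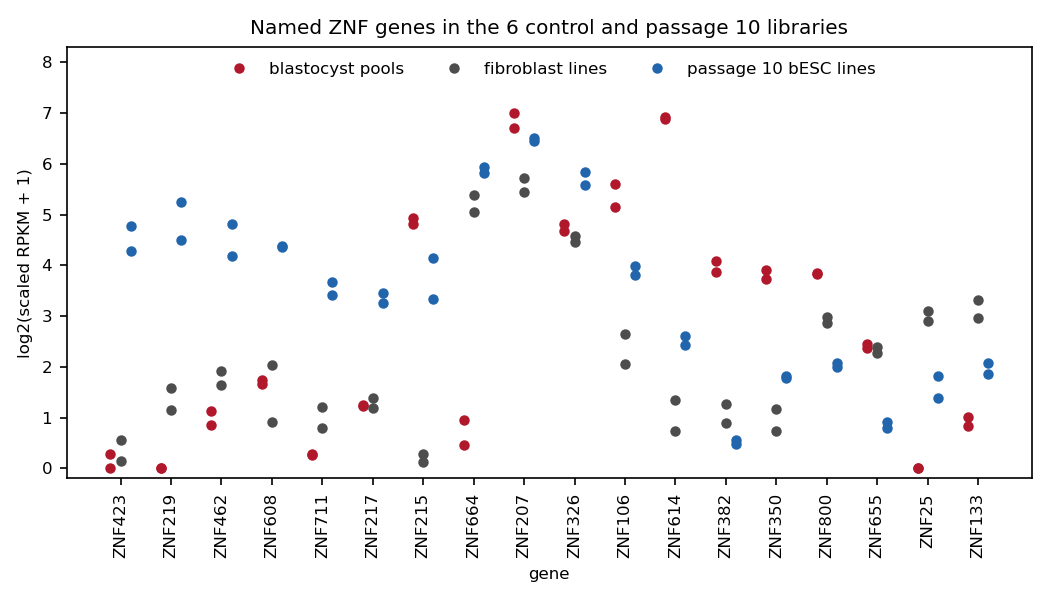
Level of 18 named ZNF genes (x axis) as log2(scaled RPKM + 1) (y axis), with 1 point per library for blastocyst pools (red), fibroblast lines (grey) and passage 10 bESC lines (blue). ZNF423 and ZNF219 are high at P10 alone, ZNF614, ZNF382 and ZNF350 are high in blastocysts alone, and ZNF25 and ZNF133 are highest in fibroblasts.

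Against blastocysts the picture depended on the scaling and on which genes were counted. limma called 126 ZNF genes higher at P10 (58.3%, background 43.9%) and 30 lower (13.9%, background 21.1%). With deposited values the split was 178 higher and 9 lower, and after quantile normalization 71 higher and 58 lower, so the share of higher calls moved from 80.8% to 95.2% and 55.0%. Under all 3 scalings together 71 were higher (32.9%, background 29.5%) and 9 lower (4.17%, background 7.33%), so the higher share was near the background. In the 66 genes present in all 6 libraries, 11 were higher (16.7%, background 27.8%) and 19 lower (28.8%, background 28.1%). The choice of these 66 favours genes that are high in the pools, as said above. Both P10 libraries lay above both pools for 150 of the 216 genes and below for 46 (55.4% and 28.7% of all features). Of the 126 higher calls, 82 were genes that reached the threshold in fibroblasts and P10 but in neither pool, and 23 were genes that reached it at P10 alone.

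Single genes nonetheless differed from blastocysts by wide margins. ZNF664 had 0.367 and 0.927 scaled RPKM in the pools, 31.9 and 40.8 in fibroblasts and 60.1 and 55.2 at P10, a change of 4.70 ± 0.23 from blastocysts. It was low in the embryo pools only. Both P10 libraries lay above both fibroblast lines (0.60 ± 0.23), a difference that was called with deposited values and after quantile normalization but not with scaled values. In the other direction ZNF614 had 119.8 and 117 in the pools, 0.672 and 1.54 in fibroblasts and 4.40 and 5.07 at P10 (-4.86 ± 0.24 from blastocysts). Its mean was the highest of all 216 ZNF genes in the pools, and it was a minor one in fibroblasts and at P10. ZNF382, a KRAB repressor that is often silenced in tumours, had 13.6 and 16.1 in the pools, 0.862 and 1.41 in fibroblasts and 0.468 and 0.389 at P10 (-3.94 ± 0.23). ZNF350 (ZBRK1, a KRAB protein that binds BRCA1) had 12.2 and 13.9 in blastocysts, 1.25 and 0.667 in fibroblasts and 2.43 and 2.53 at P10 (-2.49 ± 0.23). ZNF114 and ZNF77 showed the same order of embryo over P10, with 6.76 and 8.36 against 0.824 and 0.292 for ZNF114 and 4.22 and 8.94 against 0.513 and 0.858 for ZNF77. All 5 were called lower under all 3 scalings. Summed markers of the other blastocyst tissues moved with this contrast. The sum of 6 trophectoderm genes was 1691 and 1131 in the pools and 105.1 and 133.3 at P10, and that of 4 hypoblast genes was 29.0 and 33.0 in the pools and 0.142 and 0.106 at P10. Most of the first sum was KRT8 (867 and 545 in the pools) and KRT18 (760 and 528), and TFAP2A overlapped between pools and P10. Most of the second was GATA6 (25.3 and 29.4), and SOX17 was listed at 0 in both pools. The part of these tissues in the ZNF differences was not tested.

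**Figure D3:**
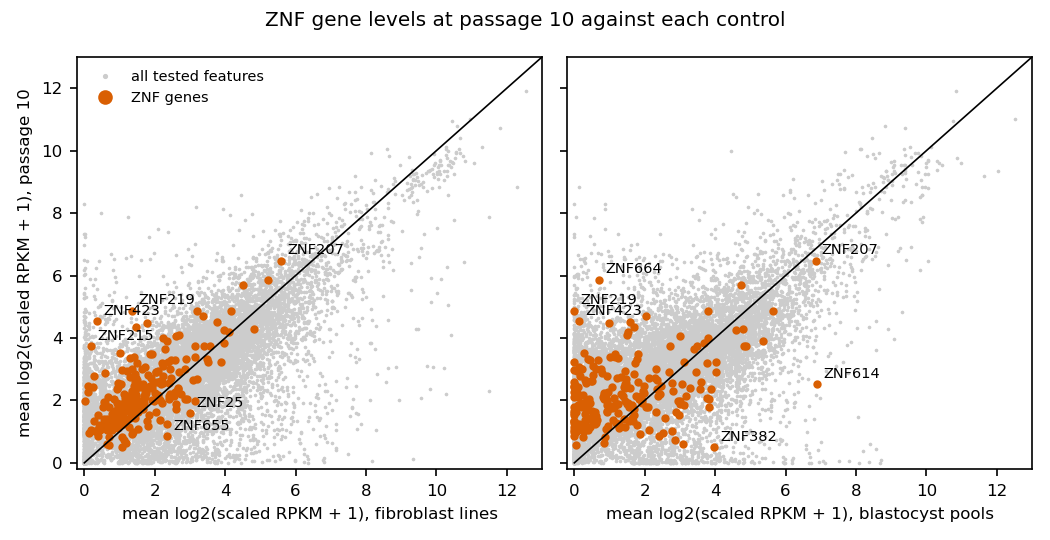
Mean log2(scaled RPKM + 1) of 2 passage 10 libraries (y axis) against that of 2 fibroblast lines (left x axis) or 2 blastocyst pools (right x axis) for all 11761 tested features (grey) and the 216 ZNF genes (orange), with the line of equal level in black. Most ZNF genes lie above the line on the left, and on the right ZNF664, ZNF219 and ZNF423 lie far above it and ZNF614 and ZNF382 far below; 2 features with blastocyst means beyond the axis are not drawn.

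Genes were next grouped by what they are known to do, in lists drawn up with earlier results of these data known. ZNF genes linked to pluripotency numbered 5 tested of 8 listed. Of these, 4 were called higher than in fibroblasts (3 under all 3 scalings) and 3 higher than in blastocysts (2 under all 3). The background was 29.1% and 43.9% higher (25.7% and 29.5% under all 3 scalings), and with 5 genes nothing is read from these counts. The called genes were led by ZNF462, above, and by ZNF217. ZNF217, a member of the CoREST-LSD1 corepressor known as an oncogene, had 1.37 and 1.33 in blastocysts, 1.27 and 1.62 in fibroblasts and 8.62 and 9.89 at P10. ZNF281, a partner of NANOG, overlapped between groups, at 18.2 and 28.8 in blastocysts, 11.3 and 18.5 in fibroblasts and 19.1 and 17.2 at P10. ZNF398, which takes part in TGF-beta signalling in human pluripotent cells, passed the threshold at P10 alone, with 1.17 and 0.963 there against 0.301 and 0.452 in fibroblasts. ZNF296, a partner of KLF4 in mouse, stayed under the threshold.

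Of the 4 listed mesenchyme- and fat-linked genes, 3 were tested and called higher at P10 against each control (background 29.1% against fibroblasts and 43.9% against blastocysts). The threshold bears on that count: ZNF423 and ZNF516 passed it at P10 alone, and ZNF469, which stayed under it, ran the other way with 1.22 and 0.618 in fibroblasts and 0.0435 and 0.0557 at P10. The count is therefore a description. ZNF521, the close relative of ZNF423 and a regulator of progenitor cells, had 4.91 and 3.55 in fibroblasts and 8.65 and 8.28 at P10 (0.81 ± 0.22) and was listed at 0 in both pools. ZNF516, an activator of brown fat genes, had 0.207 and 0.170 in fibroblasts and 3.18 and 5.95 at P10. Against fibroblasts the fibroblast markers ran the other way, with 7 of 8 called lower at P10 (background 24.6%). Against blastocysts they did not: 4 of the 8 were called higher at P10 and 0 lower (background 43.9% and 21.1%). Their sum at P10, given above, was not 0, the wells also held mouse feeder fibroblasts, and the part of these cells in the values was not tested.

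The Z3 proteins ZNF532, ZNF592 and ZNF687, which form a chromatin complex with ZMYND8, did not move together. ZNF532 rose from 7.83 and 8.41 in fibroblasts to 32.9 and 24.5 at P10 (1.63 ± 0.21, adjusted p 0.000812), with 11.7 and 14.2 in blastocysts. ZNF687 rose from 2.86 and 2.40 to 11.1 and 9.53 (1.58 ± 0.25, adjusted p 0.00204), with 3.24 and 1.91 in blastocysts. ZNF592 fell from 5.32 and 4.95 to 2.38 and 2.27 (-0.94 ± 0.21, adjusted p 0.0114), with 2.56 and 1.96 in blastocysts. The ZNF592 call was lost when fibroblast line 1 or either P10 library was left out, where its adjusted p lay between 0.051 and 0.0546.

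Imprinting-linked genes were represented by ZNF445, which binds imprinting control regions in mouse and human, and it rose against both controls. Its levels were 2.82 and 1.81 in blastocysts, 1.46 and 2.28 in fibroblasts and 8.35 and 7.97 at P10 (1.63 ± 0.26 from fibroblasts, adjusted p 0.00185; 1.01 ± 0.26 from blastocysts, adjusted p 0.00224). ZNF331, itself imprinted in humans, had 1.40 and 1.21 in blastocysts, 1.59 and 0.770 in fibroblasts and 2.89 and 2.53 at P10. Lower in level, ZNF202 had 0.0495 and 0.233 in blastocysts, 0.996 and 1.06 in fibroblasts and 2.12 and 3.1 at P10. All 3 were called higher against each control (background 29.1% against fibroblasts and 43.9% against blastocysts). Under all 3 scalings 1 stayed so against fibroblasts and 2 against blastocysts (background 25.7% and 29.5%). With 3 genes nothing is read from these counts. ZNF597 was under the threshold.

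Of 8 promoter-binding factors tested, 1 was called higher than in fibroblasts (ZNF219) and 1 lower (ZNF410). Against blastocysts, 2 were called higher (ZNF219 and ZNF76) and 1 lower (ZNF410). The background was 29.1% higher and 24.6% lower against fibroblasts and 43.9% and 21.1% against blastocysts, and with 8 genes nothing is read from these counts. ZNF410, best known as the activator of the chromatin remodeller gene CHD4, fell to 7.93 and 8.75 at P10 from 15.2 and 15.3 in blastocysts and 13.8 and 13.7 in fibroblasts (-0.72 ± 0.17 from fibroblasts, adjusted p 0.0157). Leaving out any fibroblast or P10 library took that adjusted p to between 0.0508 and 0.0929. Its lower call against blastocysts did not hold under all 3 scalings: as deposited it was at 8.3 and 8.59 RPKM in the pools and 11.9 and 12.4 at P10. CHD4 itself had 25.1 and 25.6 in blastocysts, 45.8 and 37.4 in fibroblasts and 79.8 and 77.2 at P10. ZNF143, an activator of many housekeeping and small RNA promoters, had 5.34 and 8.49 in blastocysts, 0.770 and 3.69 in fibroblasts and 2.90 and 3.09 at P10. Its relative ZNF76 had 1.45 and 0.989 in blastocysts, 8.13 and 7.62 in fibroblasts and 10.4 and 8.68 at P10. So ZNF76 was low in the pools only, while ZNF143 overlapped between fibroblasts and P10. ZNF148, ZNF263, ZNF384 and ZNF24 passed in neither comparison, with P10 means of 4.85, 3.29, 8.32 and 8.23.

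In the RNA and ribosome group, 2 of 7 genes were called higher than in fibroblasts. Against blastocysts, 4 were called higher and 2 lower (3 and 0 under all 3 scalings). The 7 include ZNF385A, whose letter suffix places it outside the ZNF genes chosen here. ZNF385A is 1 of the 4 called higher than in blastocysts, and 1 of the 3 under all 3 scalings. The background was 29.1% higher and 24.6% lower against fibroblasts and 43.9% and 21.1% against blastocysts, and with 7 genes nothing is read from these counts. ZNF598, the ubiquitin ligase that marks collided ribosomes, had 0.387 and 0.233 in blastocysts, 7.21 and 5.64 in fibroblasts and 9.56 and 8.58 at P10. ZNF622, a maturation factor of the large ribosomal subunit, overlapped across groups at 14.2 and 10.0 in blastocysts, 16.6 and 12.9 in fibroblasts and 12.9 and 13.6 at P10. ZNF593, another factor of the large subunit, had 13.4 and 8.64 in blastocysts, 5.88 and 4.76 in fibroblasts and 5.13 and 3.25 at P10. ZNF346, which binds double-stranded RNA, had 0.703 and 0.900 in blastocysts, 2.43 and 2.12 in fibroblasts and 3.14 and 4.26 at P10. The paired repressors ZNF503 and ZNF703 were low and not called in either comparison. At P10, ZNF503 had 0.225 and 2.23 and ZNF703 0.179 and 0.856 in lines A and B, with 1 library each. The 2 fibroblast libraries also lay apart, at 2.66 and 0.890 for ZNF503 and 0.979 and 0.344 for ZNF703. In the later passages the means of lines A and B were 1.27 and 1.24 for ZNF503 and 2.69 and 2.51 for ZNF703.

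Partners through which KRAB proteins silence chromatin were counted in the same way. Of 20 tested genes of the pathway (22 symbols listed, of which FAM208A and TASOR name 1 gene), 13 were called higher than in fibroblasts and 1 lower (background 29.1% and 24.6%), and 11 were called higher than in blastocysts and 3 lower (background 43.9% and 21.1%). All 13 and 10 of the 11 held under the 3 scalings, and none of the lower calls did. TRIM28, the KRAB corepressor, rose to 161 and 147 scaled RPKM at P10 from 28.1 and 24.3 in blastocysts and 48.1 and 44.9 in fibroblasts (1.64 ± 0.17 from fibroblasts, adjusted p 0.000319, and 2.03 ± 0.17 from blastocysts, adjusted p 4.58e-05). SETDB1 rose to 12.4 and 11.8 from 5.60 and 3.68 in blastocysts and 4.13 and 4.72 in fibroblasts (1.21 ± 0.23 from fibroblasts, adjusted p 0.00414, and 0.76 ± 0.23 from blastocysts, adjusted p 0.00336). Both P10 libraries exceeded all 4 controls for each. The deacetylase HDAC2 had 20.8 and 28.2 in blastocysts, 31.5 and 33.5 in fibroblasts and 188 and 158 at P10. ATF7IP, the partner that stabilises SETDB1, had 22.6 and 26.2 in blastocysts, 3.65 and 4.72 in fibroblasts and 20.5 and 23.3 at P10. ATF7IP thus separated P10 from fibroblasts and not from blastocysts. The histone methyltransferase EHMT1 had 1.59 and 1.16 in blastocysts, 5.77 and 5.83 in fibroblasts and 23.2 and 23.7 at P10. UHRF1, which guides maintenance DNA methylation, had 1.80 and 0.980 in blastocysts, 5.05 and 6.46 in fibroblasts and 50.2 and 22.8 at P10. HDAC2, EHMT1 and UHRF1 separated P10 from both controls. The HUSH subunit PPHLN1 was the partner called lower than in fibroblasts, and with FAM208A and HDAC1 it was called lower than in blastocysts.

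Other zinc finger families were counted with the same threshold and fit. Against fibroblasts, 13 of 29 ZBTB genes were called higher and 2 lower, 6 of 9 ZSCAN genes higher and none lower, 6 of 11 ZFP genes higher and none lower, and both ZKSCAN genes higher, where 29.1% of all features were higher and 24.6% lower. The KLF genes, whose fingers are few and conserved, split evenly with 3 of 10 in each direction. Under all 3 scalings the higher calls were 10, 5, 3, 1 and 3 in these families (background 25.7%). Against blastocysts, with a background of 43.9% higher and 21.1% lower, the calls were 13 higher and 4 lower for ZBTB, 3 and 2 for ZSCAN, 5 and 2 for ZFP, 1 and 0 for ZKSCAN and 3 and 6 for KLF. Under all 3 scalings these were 6 and 2, 1 and 1, 3 and 1, 0 and 0, and 2 and 6 (background 29.5% higher and 7.33% lower). The difference between families was not tested.

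Neighbouring ZNF genes were compared through the gene order of the RefSeq annotation of assembly ARS-UCD2.0, which is not the build of these files (UMD3.1), so that names and order alone were used. All 206 matched genes were placed, and 60 of them sat in 23 runs of directly adjacent protein-coding ZNF genes past the threshold. Of 37 adjacent pairs, 25 had their highest mean in the same group, 23 at P10 and 2 in blastocysts. Since 63.4% of all 216 ZNF genes were highest at P10, nothing about neighbours is read from the count. One of the blastocyst pairs was ZNF432 beside ZNF614, and ZNF432 had 6.79 and 8.51 in the pools, 0.701 and 1.42 in fibroblasts and 3.04 and 2.17 at P10. The longest run had 7 genes, ZNF786, ZNF398, ZNF282, ZNF212, ZNF783, ZNF777 and ZNF746, and every one was highest at P10. All 7 were called higher than in blastocysts (background 43.9%) and 4 higher than in fibroblasts (background 29.1%). Their blastocyst means were at most 0.411 scaled RPKM (ZNF777), so they passed the threshold through other libraries. That choice favours a difference from the pools, and the count is a description. The ends of the run were alike in order. ZNF786 had 0.136 and 0.171 in blastocysts, 2.36 and 1.85 in fibroblasts and 6.12 and 8 at P10. ZNF746 had 0.229 and 0.217 in blastocysts, 1.87 and 1.79 in fibroblasts and 5.18 and 5.50 at P10. Neighbours are often recent copies of one another and may share reads.

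**Figure D4:**
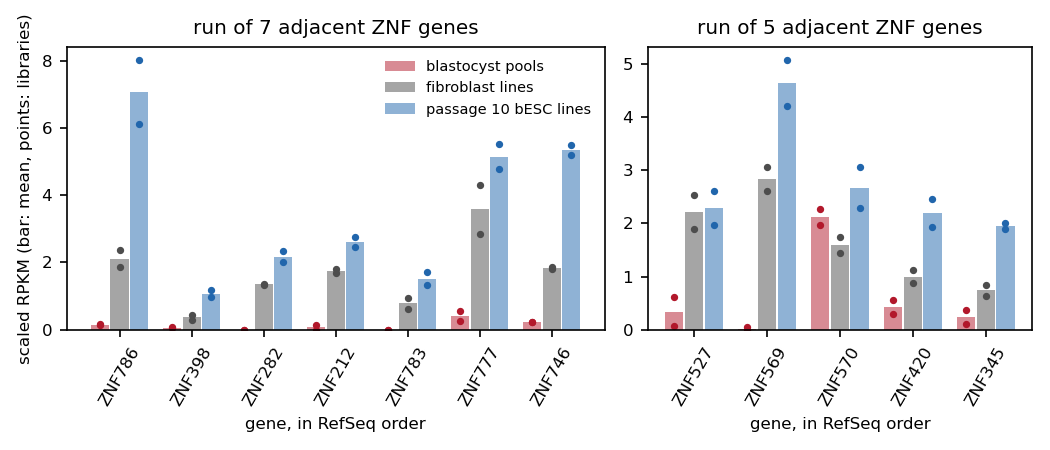
Scaled RPKM (y axis; bars are means of 2 libraries and points the libraries) of ZNF genes in 2 runs of adjacent genes in RefSeq order (x axis), for blastocyst pools (red), fibroblast lines (grey) and passage 10 bESC lines (blue). In the run of 7 every gene is highest at P10, with the blastocyst pools lowest.

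The later passages had no part in choosing the genes, so tests on them are independent of that choice. Of the 216 genes, 192 were named in the later files and 189 passed the same filter there, out of 12765 features. No ZNF gene was called for a difference between lines (background 0.00783% higher and 0% lower) or for a slope with passage (background 0% in both directions) in the fit of line and passage over 8 libraries. The smallest adjusted p among them was 0.704 for line and 0.958 for passage. At an unadjusted p under 0.05, 13 passed for line (6.88%, against 6.48% of all features), 5 higher and 8 lower in line B, and 7 for passage (3.70% against 4.58%), 2 rising and 5 falling. limma without the trend called none either, and an interaction fit called none for a difference of slopes, with 0 ZNF genes under an unadjusted p of 0.05 and 84 features in all. A fit without line A at P13 and P35, the 2 libraries in which ZNF genes most often peaked, called none either, with 5 ZNF genes for line and 3 for passage at an unadjusted p under 0.05. Leaving out line A at P23 moved these counts the other way, to 45 for line (23.8%, against 16.2% of all features), 38 of them lower in line B, and 24 for passage (12.7% against 10.0%), again with no ZNF gene called.

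The genes nearest to a difference had small ones. ZNF775 was at 5.35, 5.06, 6.62 and 4.80 scaled RPKM in line A (in order of passage) and 4.41, 3.74, 3.29 and 3.83 in line B, with no overlap (line B minus line A -0.42 ± 0.12, unadjusted p 0.00642, adjusted p 0.704 by limma). It was named after its values were seen, as the smallest p for line. ZNF703 was at 1.46, 2.86, 3.50 and 2.92 in line A and 1.71, 2.30, 3.15 and 2.88 in line B, a slope of 0.19 ± 0.06 per 10 passages (unadjusted p 0.0118, adjusted p 0.958 by limma). In each line its lowest value was that of the earliest library.

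Most ZNF genes varied little between the 8 later libraries. The median range (highest minus lowest on the log2 scale) was 0.451, against 0.474 for all features, and 11 ZNF genes (5.82%, against 10.4%) reached a range of 1. ZNF207 stayed between 116 and 132. The widest ranges were those of ZNF423 and ZNF395, and they ran in opposite directions. ZNF423 was at 31.8, 9.41, 24.6 and 10.3 in line A and 14.2, 12.0, 21.0 and 9.42 in line B. ZNF395, a factor known to be induced in hypoxia and named here after its values were seen, was at 7.48, 20.7, 10.1 and 24.1 in line A and 22.1, 14.8, 9.71 and 20.5 in line B. ZNF423 was thus highest, and ZNF395 lowest, in line A at P13 and at P35 and in line B at P35. The sum of 5 hypoxia response genes (BNIP3, PDK1, NDRG1, ADM and VEGFA, a list chosen with these data known) was 121.5, 576.2, 222 and 681.5 in line A and 510.6, 325.3, 235.5 and 556.1 in line B, lowest in the same 3 libraries. Its part in either gene's pattern was not tested.

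ZNF608 had the ZNF423 pattern, with 17.2, 8.77, 13.8 and 9.20 in line A and 10.4, 8.04, 15.5 and 8.91 in line B. ZNF215 was at 27.2, 24.8, 15.1 and 16.3 in line A and 33.8, 34.7, 18.7 and 35.3 in line B. Line B was thus higher at each of the 4 later stages (0.54 ± 0.22, unadjusted p 0.0395, adjusted p 0.714 by limma). At P10, in the other file set, the order was reversed: line A had 16.7 and line B 9.08. As a whole the ZNF genes peaked most often in line A at P13 (66 genes, 34.9%, against 19.1% of all features) and at P35 (44 genes, 23.3% against 16.9%), and were most often lowest in line B at P46 (46 genes, 24.3% against 8.91%). Their medians ranged from 4.06 to 4.83 scaled RPKM over the 8 libraries.

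**Figure D5:**
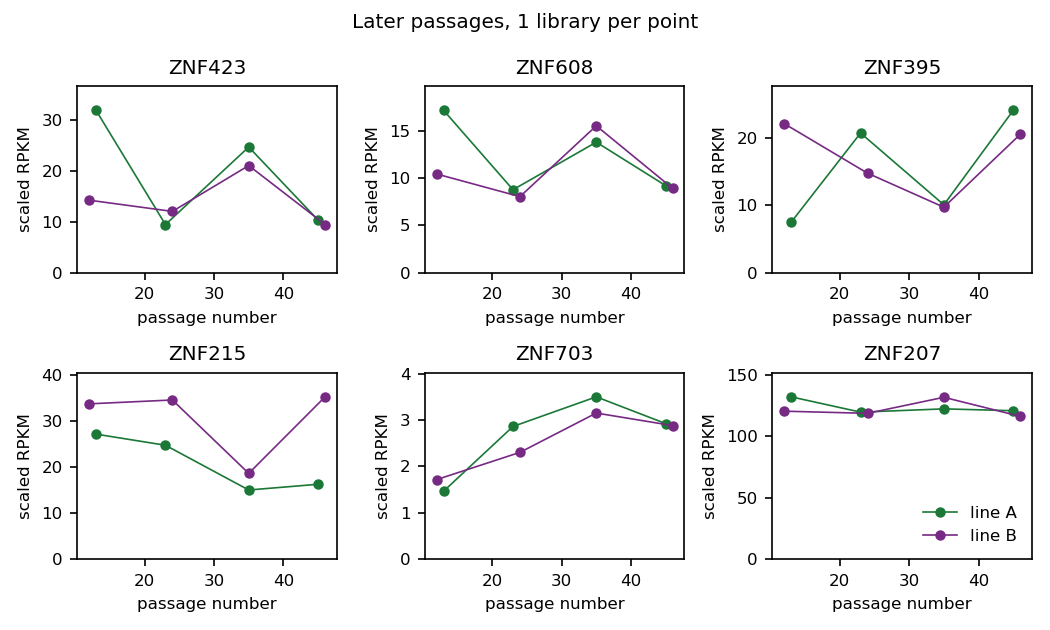
Scaled RPKM (y axis) of 6 ZNF genes against passage number (x axis) in line A (green) and line B (purple), 1 library per point. ZNF423 and ZNF608 peak in line A at P13 and P35 and in line B at P35, where ZNF395 is low, and ZNF207 stays between 116 and 132.

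P10 and the later passages were deposited as separate file sets with different feature lists, so levels across them are set side by side on a joint scale without a test. The median change of the 192 shared ZNF genes from P10 to later passages was -0.18 on the log2 scale, and 0.0589 for 10483 shared features. Those features were at 1 scaled RPKM or more in 2 or more of the P10 and later libraries. The ZNF genes had been chosen on the control and P10 libraries, a choice that favours a fall after P10. The 2 filters differ, so the shares set side by side are a description. All 8 later libraries lay below both P10 libraries for 54 ZNF genes (28.1%, against 14.5% of the 10483 features) and above both for 15 (7.81%, against 22.3%). On the joint scale ZNF608 went from 24.2 and 24.6 at P10 to a range of 6.71 to 14.2, ZNF423 from 32.8 and 22.9 at P10 to a range of 7.89 to 26.2 and ZNF521 from 10.7 and 10.3 at P10 to a range of 3.61 to 9.19. ZNF395 moved the other way, from 4.27 and 3.86 at P10 to a range of 6.17 to 20.1, as did ZNF143, from 3.59 and 3.84 at P10 to a range of 10.6 to 14. The files and the passage change together here and cannot be told apart.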

How the data were processed

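RNA of 14 samples was sequenced, and the authors deposited 1 table per library with RPKM values (reads scaled for gene length and sequencing depth) and no counts, so depth is unknown and no counting interval is given. The submitters' processing notes name the genome build UMD3.1 and edgeR. Not given in the sources used here are tool versions, aligner, counter and annotation. The 6 control and P10 tables share 1 feature list, and the 8 later tables share another. From the first set 26 features whose name could not be read, 25 whose name had become a date and 21 with blank values were dropped, and from the second 26 names that had become dates. GAPDH is listed at 0 in all 14 libraries, so a 0 can be a failed estimate: it is written as listed at 0, and no fold is given against it.

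Values were scaled per library by the median of ratios, and features that reached 1 RPKM in 2 or more of a fit's libraries were tested as log2(scaled RPKM + 1) with limma 3.58.1 in R 4.3.3 (empirical Bayes with trend, two-sided, Benjamini-Hochberg over all features, adjusted p under 0.05). The first fit held the 3 groups of 2 libraries with 1 common spread, and its 2 comparisons share the P10 libraries. The second held the 8 later libraries with line and passage, serial samples of 2 cultures. The script was tested on simulated data. Python 3.11.15 with numpy 2.4.6 and pandas 2.3.3 read the tables. The genes and lists were chosen with earlier results of these data known.

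Genes named are, per comparison, the 6 called in each direction whose change was largest, with no overlap and a higher-group mean of 3 or more; the 8 most abundant; members of the role lists; 3 on each side of the threshold; TRIM28, SETDB1 and up to 4 partners with the smallest adjusted p. Others named were chosen after their values were seen or for their place beside a named gene. Alternatives were deposited values, quantile normalization, a pseudocount of 0.1, no filter, no trend, leaving out each library, all 10 bESC libraries, a fit without the P13 and P35 libraries of line A, and, added after seeing the data, a replicate block.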

Additional observations from a re-analysis of the deposited data

Results flagged for a closer look

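In the later passages, 5 of 92 groups of 4 libraries (1 named ZNF gene in 1 line each) had a library far from the other three by Dixon's ratio, where chance gives about 1 in 20. ZNF215 in line B was at 18.7 scaled RPKM at P35, against 33.8 to 35.3 in the other libraries of that line. ZNF365 in line A was at 0.691 at P13, against 1.53 to 1.62. ZNF114 in line A was at 1.56 at P13, against 1.82 to 1.84. ZNF593 in line A was at 10.4 at P35, above the 7.47 to 7.65 of the others. ZNF550 in line B was at 0.92 at P46, against 1.17 to 1.20.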

How the results depend on the processing

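Against fibroblasts, the number of ZNF genes called higher (101) ranged from 43 to 95 and the number lower (10) from 5 to 11 when each library was left out. The lowest counts came without line A at P10. Against blastocysts, the counts ranged from 93 to 124 higher and 22 to 31 lower, beside 126 and 30. Deposited values gave 9 lower there, and quantile normalization gave 71 higher and 58 lower. A pseudocount of 0.1, no filter and no trend kept all 4 counts within 1.5 times. Fitted changes from blastocysts, before the median is taken off, turned sign with deposited values for ZNF215 (0.19), ZNF207 (1.01), ZNF638 (0.60), ZNF259 (0.82), ZNF281 (1.00), ZNF410 (0.48), ZNF148 (0.93) and ZNF593 (0.0035), and after quantile normalization for ZNF592 (-0.79), ZNF331 (-0.22), ZNF862 (-0.40) and ZNF550 (-0.26). From fibroblasts, ZNF365 turned to -0.029 after quantile normalization. The cause was not tested. Calls were lost for named genes 40 times over all alternatives against fibroblasts and 22 times against blastocysts, and gained 16 and 15 times. No ZNF gene was called for line or passage under any alternative run. Depth in reads is unknown and limits every low value, and 2 libraries a group limit each test. The titles mark the libraries of all 3 groups of the first fit with A and B, and nothing states that a letter is shared by anything else. A replicate block on that letter, added after seeing the data, gave 93 higher and 10 lower against fibroblasts and 122 and 30 against blastocysts. The A to B differences of the groups correlated at 0.177 (blastocysts with fibroblasts), -0.0726 (blastocysts with P10) and -0.0959 (fibroblasts with P10) over 11761 features, so the letters were not taken to pair samples.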
